A study of Mus musculus with 30 samples.

Results

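Odorant receptor (OR) gene expression was compared between mice that lack the H element and the P element and wild-type mice measured on the same NanoString cartridge. The mutants are homozygous for both deletions, in the strain written in the labels as ΔP (Berry) x ΔH, called ΔHxΔP below. The wild-type mice are of the companion strain. All carry a mixed C57BL/6J x 129SvEv background, were 21 days old and gave 1 μg of total RNA from whole olfactory mucosa, 1 mouse to a lane. The comparison takes the 6 ΔHxΔP mice (5 males and 1 female) and the 6 wild-type mice (3 males and 3 females) of cartridge MK29, so 12 of the 30 mice of the series. Mice of the other cartridges were kept out of every test, so that no difference between cartridges enters. Wild-type mice filled lanes 1 to 6 and mutants lanes 7 to 12, and the position of a lane cannot be told apart from the genotype. Mice are numbered 1 to 6 within a group in the order of their lanes, and equal numbers do not pair mice. Both deletions are germline deletions and every mutant carried both, so the share of each deletion in a change cannot be separated in these data. Companion mice are not stated to be littermates.

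OR genes form the largest gene family of the mouse and lie in clusters on most chromosomes. A mature olfactory sensory neuron is thought to express a single OR gene from a single allele, and enhancers within or beside the clusters take part in that choice. The H element, on chromosome 14, and the P element, on chromosome 7, are enhancers of this kind, each known for acting on OR genes of its own cluster. In RNA of whole mucosa, fewer neurons that chose a gene and less RNA per neuron cannot be told apart.

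The measurement is a count of barcoded reporter probes per gene and lane. Of 564 OR genes in the table, 558 had counts on this cartridge, and summed raw counts of these genes ranged from 620615 to 836628 per lane. Counts were scaled by the 6 positive controls and then by 5 genes of the odorant transduction cascade and of mature neurons, and all counts below are these scaled counts. The level of a gene is given as the median of the 6 mice of a group, with the lowest and the highest mouse in parentheses. The transduction genes were at high levels in all 12 mice: Omp, the marker of mature olfactory sensory neurons, stood between 100693 and 105300, and Adcy3, the adenylyl cyclase of the cascade, between 75768 and 83828. The 5 also include the channel genes Cnga2 and Ano2 and the G protein gene Gnal. The scaling sets their geometric mean equal in every lane, so a change common to all 5 cannot show on this scale. Within that limit none of the 5 differed between the groups (limma, adjusted p from 0.114 to 0.935). Scaled on the positive controls alone, their geometric mean was 0.09 higher in mutants in log2 units (two-sided exact permutation test over every division of the 12 mice, p = 0.232). Singly they then changed by -0.002 (Ano2) to 0.13 (Adcy3), and none passed (limma, adjusted p from 0.164 to 0.987). The background of a lane, the mean plus 2 SD of its 8 negative controls, lay between 32.5 and 52.5 scaled counts, and values near it are not resolved. Changes are differences of mean log2(scaled count + 1), mutant minus wild type, with a gene called at a Benjamini-Hochberg adjusted p under 0.05 from limma over all 558 genes.

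Each gene is read by a capture probe and a reporter probe. Among the genes from Olfr1507 to Olfr1513, the probes that come closest to each other are shown, with 1 of Olfr1509. Neighbours with like probes could share counts. Capitals mark the bases that differ from the most similar probe of any other OR gene on the CodeSet, compared without gaps.
Olfr1507 reporter: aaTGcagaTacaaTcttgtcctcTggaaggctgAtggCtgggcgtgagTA
Olfr1508 capture: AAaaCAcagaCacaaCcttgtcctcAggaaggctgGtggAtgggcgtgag
Olfr1509 capture: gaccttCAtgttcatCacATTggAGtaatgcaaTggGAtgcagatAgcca
Olfr1512 capture: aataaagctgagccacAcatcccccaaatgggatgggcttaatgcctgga
Olfr1513 capture: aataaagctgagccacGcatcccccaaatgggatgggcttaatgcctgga
The Olfr1507 reporter probe and the Olfr1508 capture probe are each other's closest match, with 41 identical bases, while the other probe of each gene, the Olfr1507 capture and the Olfr1508 reporter, differs from its closest match at 22 and 14 bases. The capture probes of Olfr1512 and Olfr1513 differ at 1 base, and their reporter probes at 9, and whether the counts of these neighbours share signal was not tested. Of the most reduced genes of the P cluster, the closer or equally close probe of Olfr2 and Olfr6 and the capture probe of Olfr711 are shown.
Olfr2 capture: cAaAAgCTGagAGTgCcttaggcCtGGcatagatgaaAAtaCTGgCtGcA
Olfr711 capture: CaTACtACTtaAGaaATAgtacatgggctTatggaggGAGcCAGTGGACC
Olfr6 reporter: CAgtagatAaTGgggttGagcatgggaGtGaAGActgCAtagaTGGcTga
The closest matches of these probes left 21, 25 and 17 of 50 bases different. The reporter probe of Olfr711, which is not shown, came closer to another OR gene, with 19 bases different.

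ΔHxΔP mice lost nearly all counts at the Olfr1507 end of the chromosome 14 genes marked H in the study's OR table. The loss faded along the marked genes as far as Olfr1511, and the last of them, Olfr1512 and Olfr1513, were not called. Past them, outside the genes marked H, Olfr221 and Olfr750 were called lower. The study reports more H cluster genes lowered in this mutant than carry the mark, so the H cluster it means is wider. The H mark of the study's OR table covers 7 genes on chromosome 14, from 52968714 to 53110637 in that table (none of the sources used here names the table's build). Of the 7, 5 were lower and 2 did not pass, where 16.8% of all OR genes were called lower. Their median log2 change was -2.45, beside 0.004 over all 558 genes. In wild-type mice Olfr1507 had 8981 (7341 to 10863) scaled counts, against 40.5 (29.4 to 50) in the 6 mutants. It was the most abundant gene of the list in wild-type mice and lay at the level of the negative controls in mutants, with 2 of 6 mutants at or under the background of their lane. Since the mutant level is not resolved, the fold is given as a bound: with values under the lane background raised to it, Olfr1507 was at least 219-fold lower (limma, adjusted p = 5.69e-18). Its neighbour Olfr1508, also named MOR10, stood at 6612 (5555 to 8210) in wild-type mice and at 35.4 (16.4 to 39.9) in mutants. All 6 mutants were at or under their background for Olfr1508, which was at least 166-fold lower (adjusted p = 4.31e-16).

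Olfr1509, the next gene, kept a measurable level in every mutant. Wild-type mice held 3103 (2608 to 3710.4) counts of Olfr1509 and mutants held 140.3 (132 to 163), which is 4.58% of the wild-type mean, and the gene fell by 4.43 on the log2 scale (SE 0.0917, adjusted p = 9.61e-17). The 6 mutants lay close together and far above the lane backgrounds. Olfr1510 went from 806 (704 to 924.4) in wild-type mice to 165 (72.5 to 203) in mutants, and fell by 2.45 on the log2 scale. Olfr1511 stood at 1707 (1454 to 1863) against 523 (445 to 622), so mutants kept 31.6% of the wild-type mean. For each of the 5 genes from Olfr1507 to Olfr1511 every mutant lay below every wild-type mouse, an order met by 10.9% of all OR genes. Olfr1512 stood at 411 (349 to 470.1) in wild-type mice and 343 (252 to 456) in mutants, with a change of -0.28 (adjusted p = 0.137), and it passed only when mutant mouse 6 was left out (adjusted p = 0.039). Olfr1513 stood at 859 (689 to 949.8) and 776 (580.4 to 1018), and the groups overlapped in most mice.

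**Figure D1:**
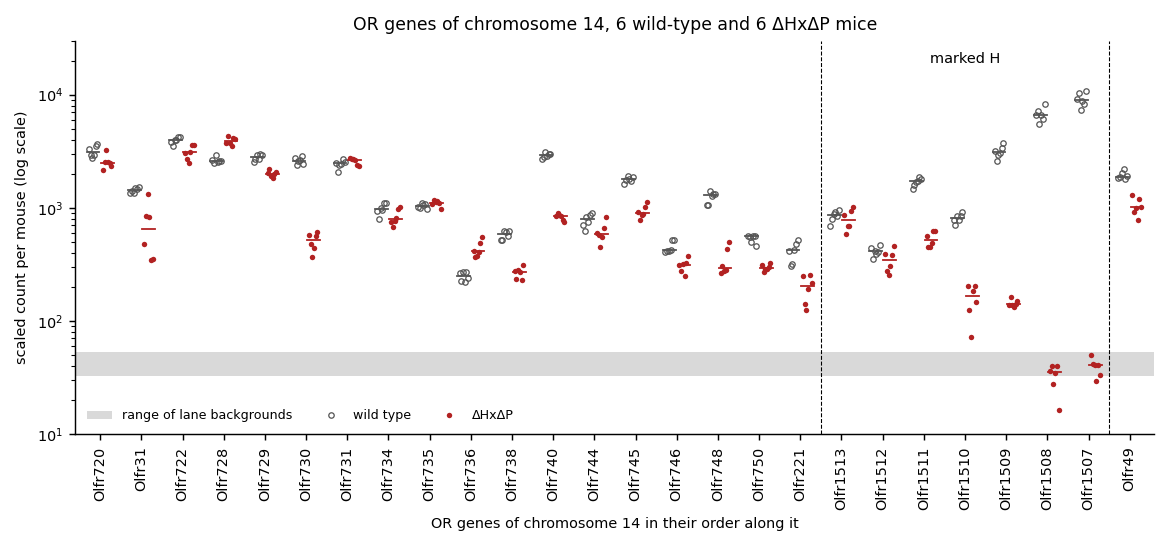
Scaled counts on a log axis for the 26 measured OR genes of chromosome 14 in their order along it, with 1 point per mouse, a line at each median and the range of lane backgrounds in grey. From Olfr1511 to Olfr1507 all mutants lie below all wild-type mice, down to the background at Olfr1508 and Olfr1507, and Olfr730, Olfr740 and Olfr748 are set apart in the same direction among genes that moved less.

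Chromosome 14 holds 19 further measured OR genes outside the H mark, and most of them were also lower in mutants, at the median by a smaller amount. Olfr730, Olfr748 and Olfr740 fell by more than Olfr1511 of the H mark. Of these 19, 13 fell, 2 rose (10.2% of all OR genes were called higher) and 4 did not pass, with a median log2 change of -0.55. Olfr730 changed most, from 2615 (2394 to 2892) counts in wild-type mice to 518 (365 to 616) in mutants. It fell by 2.39 on the log2 scale (SE 0.111, adjusted p = 9.37e-12), and its neighbours moved less: Olfr729 fell by 0.48 and Olfr731 changed by 0.09 (adjusted p = 0.373). The MOR106 family, 7 genes of which lie side by side here, was divided. Within it Olfr748, Olfr740, Olfr738, Olfr745 and Olfr746 fell, with log2 changes of -1.89, -1.82, -1.11, -0.94 and -0.55, whereas Olfr736 rose by 0.80 and Olfr744 changed by -0.36 (adjusted p = 0.0532). Olfr740 had 2926 (2721 to 3133) counts in wild-type mice and 847 (749 to 896) in mutants. Olfr736, its near neighbour, ran the other way, from 250 (222 to 269.5) to 411 (366 to 555), with no overlap between the groups (adjusted p = 4.70e-05). Olfr728 was the other gene that rose, from 2594 (2481 to 2924) to 3899 (3497 to 4268), a change of 0.57 (adjusted p = 1.92e-06).

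Nearer to the H mark, Olfr750 fell by 0.84 and Olfr221, the last gene before it, by 1.08. Olfr49, the only measured OR gene on the far side of Olfr1507, had 1884 (1788 to 2207) counts in wild-type mice and 1006 (780 to 1284) in mutants, and it fell by 0.93 on the log2 scale (SE 0.105, adjusted p = 2.63e-06). Olfr722 and Olfr729, at the other end of this stretch, fell by 0.37 and 0.48. Olfr734 and Olfr735 changed by -0.24 and 0.08 and did not pass (adjusted p of 0.108 and 0.406), like Olfr731 and Olfr744. A pair of genes lies far off toward the centromere of the same chromosome. Olfr31 and Olfr720 fell by 1.22 and 0.31, but the 6 mutants differed widely for Olfr31, as described with the spread between mice, and Olfr720 no longer passed without wild-type mouse 5 (adjusted p = 0.052) or without mutant mouse 1 (adjusted p = 0.055).

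Some of these levels on chromosome 14 also differ between wild-type mice of different strains. Wild-type companions of the ΔH strain, on cartridge MK37 and of the same mixed background, and wild-type 129SvEvTac mice, 6 of each, were set beside the 12 mice on a scale computed over all 30 lanes. This is a description across cartridges, with no test. On that scale Olfr740 had 743 to 895 counts in 129SvEvTac mice, overlapping the mutants (791 to 946), against 2873 to 3307 in the companions and 3035 to 3496 in MK37 mice. Olfr31 had 233 to 285 in 129SvEvTac mice, below every mutant (361 to 1393). Of the 13 genes that fell outside the H mark, 5 (Olfr720, Olfr31, Olfr722, Olfr729 and Olfr740) had all 6 129SvEvTac mice at or below the highest mutant. For 4 of the 13 (Olfr720, Olfr31, Olfr746 and Olfr221) at least 1 MK37 mouse was at or below it, and for none were all 6. Both genes that rose were as high as a mutant in at least 1 129SvEvTac mouse, and Olfr736 was higher there, at 843 to 938, than in any mutant (387 to 585). Olfr730 was not of this kind, with 2202 to 2494 in 129SvEvTac mice and 385 to 649.8 in mutants. Nor was any of the 5 genes of the H mark that fell, since no wild-type mouse of either group came down to a mutant: Olfr1507 had 2787 to 3851 in 129SvEvTac mice and 31 to 52.8 in mutants. In the P cluster 16 of the 17 genes that fell had values in 129SvEvTac mice, and for 2 of them, Olfr701 and Olfr708, a mouse of that strain reached the mutants. MK37 mice did so for 1 of the 17, Olfr17, with 3179 to 3388 counts against 2635 to 3646 in mutants. The part of the mixed genetic background in the changes on chromosome 14 was not tested.

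In the P cluster of chromosome 7, the counts of a short run of neighbouring genes collapsed in ΔHxΔP mice, and most genes on the Olfr695 side of that run were moderately lower. The cluster has 25 genes in the OR table, from 113821048 to 114291843 in its coordinates, of which 22 were measured on this cartridge and 3 were not analysed here. Of the 22, 17 fell, 1 rose and 4 did not pass, with a median log2 change of -0.69. The MOR103 genes Olfr6, Olfr711 and Olfr2, which lie next to each other, changed most. Olfr2 encodes a receptor best known for its response to the odorant octanal. Its counts stood at 3562 (3468 to 4021) in wild-type mice and at 43.6 (38.2 to 62.4) in mutants, of which 2 were at or under the background, and Olfr2 was at least 75.5-fold lower (adjusted p = 3.38e-17). Olfr711 stood at 2256 (2105 to 2484) and 61.7 (36.2 to 75), with 1 mutant under the background, and was at least 40.2-fold lower (adjusted p = 1.64e-14). Olfr6 was the most abundant gene of the cluster in wild-type mice, at 6845 (6568 to 7919.6), and kept 242 (162 to 327) counts in mutants, 3.47% of the wild-type mean. Mutants thus stayed above the background for Olfr6 in 6 of 6 mice.

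On the telomeric side of Olfr2 follow Olfr713 and Olfr714, both of the MOR263 family. Olfr713 fell from 371 (342 to 405) to 59.2 (50.1 to 69.6) counts and Olfr714 from 451 (389.5 to 508) to 53.8 (45.8 to 69.2). Mutant values of both lay just above the lane backgrounds, and the size of the change depends on how the background is treated. The log2 changes were -2.62 and -3.01 without subtraction and -4.08 and -4.83 after the lane background was subtracted. The next gene, Olfr17, of the same family and known from mice in which its neurons were labelled to follow their axons, kept 75.8% of its wild-type mean. Olfr17 stood at 3712 (3304 to 4198) in wild-type mice and at 2592 (2496 to 3454) in mutants, with an overlap of the groups, and it fell by 0.41 on the log2 scale (SE 0.0883, adjusted p = 0.00245). Olfr715 was the gene of the cluster that rose, by 0.38 (adjusted p = 0.00515), from 1263 (1164 to 1640.5) to 1668 (1562 to 2032), again with overlap. Olfr716, at the end of the cluster, fell by 0.58. In males alone (3 wild-type mice and 5 mutants) neither Olfr17 nor Olfr715 passed, with adjusted p of 0.077 and 0.076.

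On the centromeric side, Olfr710 fell by 1.40, from 321 (274 to 359) to 122 (85.5 to 151) counts. Farther out the changes were smaller, except for Olfr704. That gene, a pseudogene by its MOR name, went from 1610.4 (1442 to 1798) to 265 (231 to 306) and fell by 2.60, while the genes on either side fell by 0.65 (Olfr703) and 0.95 (Olfr705). Between Olfr695 and Olfr708 every other measured gene that passed fell by 0.45 (Olfr702) to 0.95 (Olfr706). Olfr695 lay at 3618 (3554 to 4097) in wild-type mice and 2272 (2115 to 2348) in mutants, and with an SE of 0.0548 its fall of 0.71 was among the best resolved (adjusted p = 1.96e-08). Olfr693, Olfr694, Olfr697 and Olfr698, at the centromeric edge, changed by 0.04, -0.11, -0.06 and -0.15 and did not pass. By family, 7 of 11 MOR283 genes, 4 of 5 MOR260 genes, 3 of 3 MOR263 genes and 3 of 3 MOR103 genes of the cluster fell.

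**Figure D2:**
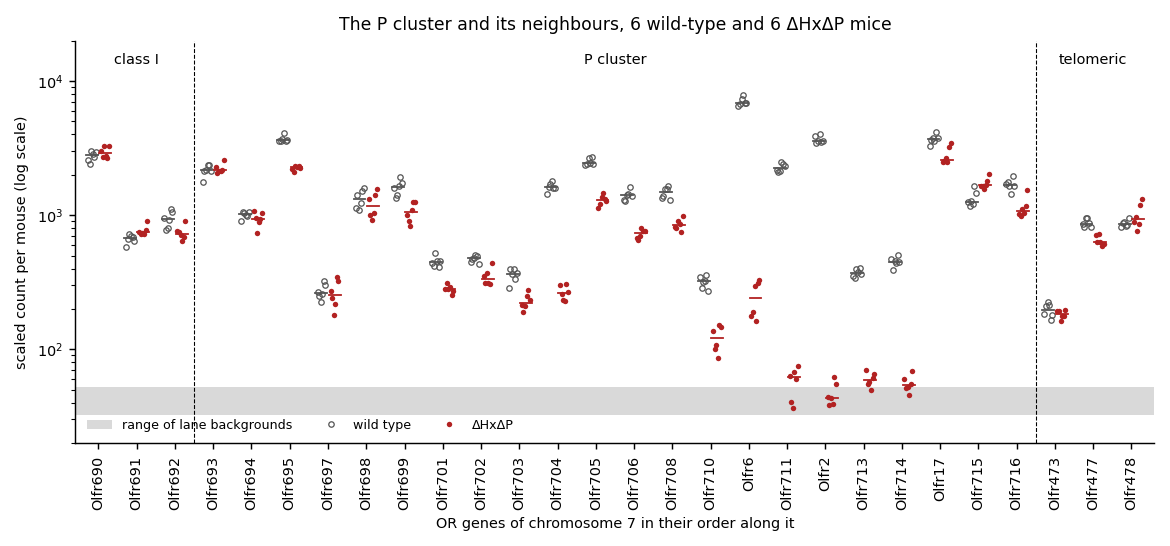
Scaled counts on a log axis for the 22 measured P cluster genes and the 3 nearest measured OR genes on each side, in chromosomal order, with 1 point per mouse, a line at each median and the range of lane backgrounds in grey. The mutants drop to or near the background from Olfr711 to Olfr714, keep 162 to 327 counts at Olfr6, and overlap the wild-type mice at Olfr17, Olfr715 and Olfr716, while Olfr477 outside the cluster is again apart, with 589 to 725 counts in mutants.

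Of the 6 genes nearest to the cluster, 3 on each side, Olfr692 and Olfr477 were lower and 4 did not pass. The 3 class I genes next to it on the centromeric side, Olfr692, Olfr691 and Olfr690, changed by -0.33, 0.20 and 0.10. Olfr692 passed (adjusted p = 0.03) but not without any of 5 single mice, wild-type mice 1, 5 and 6 and mutant mice 4 and 5 (adjusted p from 0.0522 to 0.0724). On the telomeric side 22 OR genes carry the P telomeric mark and have counts, of which 3 fell and none rose, with a median log2 change of 0.06. The share called lower, 13.6%, was below the 16.8% of all OR genes. Olfr477 fell by 0.43, from 867 (814 to 957) to 635 (589 to 725), and Olfr491 by 0.52. Of the nearest measured genes, Olfr473 and Olfr478 changed by -0.10 and 0.18 (adjusted p of 0.544 and 0.264). With the positive controls alone as scale, 6 P telomeric genes were called higher.

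Summed over the genes of a list, counts per mouse show how much of the OR signal these regions carry. The 7 genes marked H gave 19673 to 26907 scaled counts in wild-type mice (median 22268) and 1673 to 2438 in mutants (median 2046). Their share of all OR counts fell from 2.93% ± 0.316 (SD, n = 6) to 0.278% ± 0.0328. P cluster counts ran from 36953 to 41465 (median 39229.8) in wild-type mice and from 16669 to 21048 (median 17602) in mutants, a share of 5.06% ± 0.138 against 2.49% ± 0.0938. The other genes of chromosome 14 went from 31914 ± 1548 to 22509 ± 666 counts. On the log2 scale the 3 sums fell by 3.49, 1.11 and 0.50, each with an exact two-sided permutation p of 0.00216, the smallest that 6 mice against 6 allow, and 0.00433 after Benjamini-Hochberg adjustment over the 6 sums. The groups did not overlap in any of these 3 sums.

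With the reference genes held equal, the sums over the remaining genes moved less than the mice of a group differed. The P telomeric genes summed to 15359 ± 853 counts per wild-type mouse and 15528 ± 1259.7 per mutant (exact permutation test, adjusted p = 0.81). The 488 OR genes outside all of these lists gave 667387 ± 30056 and 672545 ± 39657 (same exact test, adjusted p = 0.81), a difference of means of 5158 counts. The sum over all 558 OR genes had a change of -0.09 (same exact test, adjusted p = 0.107), and without mutant mouse 6 this was -0.11 (adjusted p = 0.0292). The mean of the mutants minus that of wild-type mice was -20697 counts for the H mark, -21026 for the P cluster and -9405.5 for the other genes of chromosome 14. On this scale the reference genes are held equal, and with the positive controls alone the sum over all OR genes changed by -0.00139. On that other scale the P telomeric sum changed by 0.101 and the sum of the 488 genes by 0.0975 (same exact test, adjusted p = 0.143 for both).

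**Figure D3:**
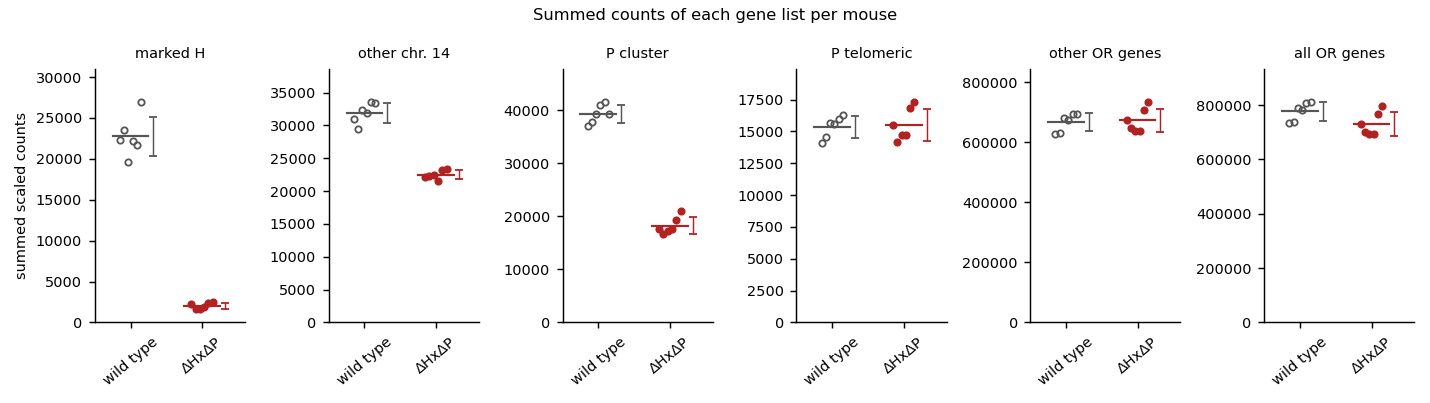
Summed scaled counts for each gene list, on axes that start at 0, with 1 point per mouse (open, wild type; filled, ΔHxΔP), a line at each mean and a bar of 1 SD. The sums of the H mark, the other chromosome 14 genes and the P cluster are apart between the groups, those of the P telomeric and other OR genes overlap.

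Outside chromosome 14 and the P cluster many OR genes also differed between the groups, mostly by small amounts and in both directions. Over all 558 genes, 94 were called lower and 57 higher, the latter 10.2% of the genes tested. Of the 488 genes in none of the lists, 56 fell and 54 rose, with a median size of 0.37 on the log2 scale, and 10 of these 110 changed by more than 1. The direction of these calls depends on the scale. With the positive controls alone the split was 27 lower and 114 higher, a setting in which the median OR gene stood 0.09 higher in mutants. Without wild-type mouse 2 the number higher over all genes was 36 in place of 57, in males alone 22 of the 488 were lower and 24 higher, and with sex as a covariate 50 were lower and 35 higher. In the H mark, the other chromosome 14 genes and the P cluster the counts of genes called lower ran only from 5 to 6, from 11 to 15 and from 15 to 17 over every scale and subset of mice tried.

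**Figure D4:**
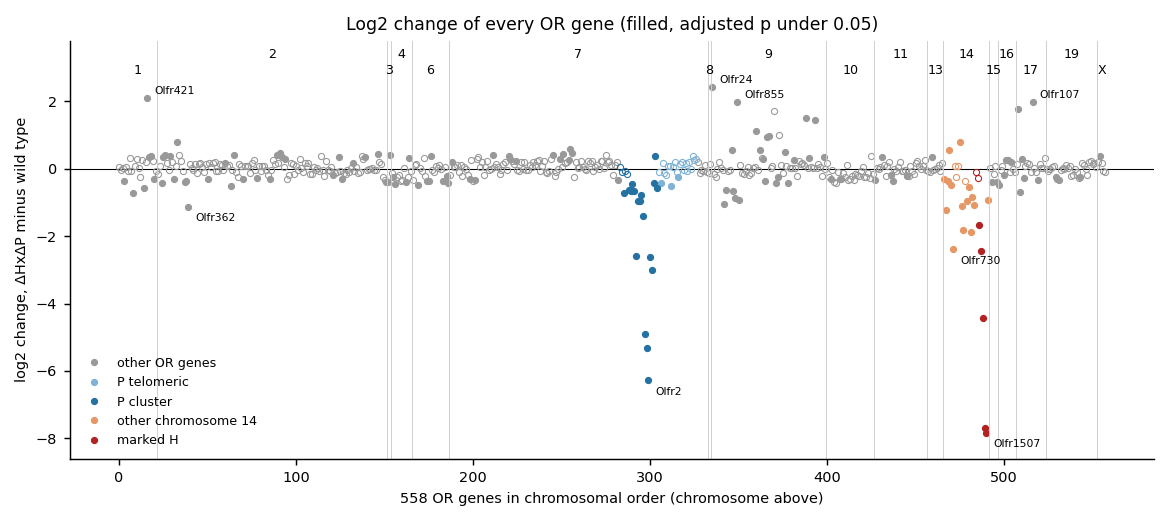
Log2 change, ΔHxΔP minus wild type, of the 558 OR genes in chromosomal order, filled where the adjusted p is under 0.05 and coloured by list, with chromosome numbers above. The P cluster and chromosome 14 hold the changes below -2, and the changes above 2 are Olfr24 on chromosome 9 and Olfr421 on chromosome 1.

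Among chromosomes with at least 20 measured genes outside chromosome 14 and the P cluster, the share called ran from 7.41% on chromosome 10 to 35.4% on chromosome 9, where 113 of all 510 such genes (22.2%) were called. On chromosome 9, 23 of 65 genes were called (14 higher, 9 lower), and 7 of the 11 genes outside the lists with a change of more than 1, called or not, lie there. Among these 7, Olfr149, Olfr893, Olfr909 and Olfr975 were lowest in mutants 5 and 6 and, of wild-type mice, highest in mouse 6. They are therefore not separate observations, as described with the spread between mice. On chromosome 2, with the most measured genes, 27 of 130 were called, near the 22.2% of all such genes. Of 20 genes named by the smallest p outside the lists, 11 are on chromosome 9. A run of 9 measured neighbours from Olfr844 to Olfr862 held 5 that fell, 2 that rose and 2 that did not pass. Olfr855, in that run, had 357 (320.2 to 402) counts in wild-type mice and 1415 (1213 to 1671) in mutants, and rose by 1.99 (SE 0.0885, adjusted p = 5.77e-12). The next gene, Olfr862, stood at 883 (822 to 911) and at 442 (418 to 545), and fell by 0.92, and on the other side Olfr854 fell by 0.85, from 817 (631 to 902) to 455 (318 to 473). No wild-type value of these 3 genes overlapped with a mutant value. In the same run Olfr844 fell by 1.06, Olfr853 by 0.67 and Olfr845 by 0.62, Olfr851 rose by 0.56, and Olfr847 and Olfr849 changed by -0.06 and -0.04 without passing. The genes that bound the run, Olfr843 and Olfr77, changed by -0.03 and 0.11 and did not pass.

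The MK37 and 129SvEvTac mice were set beside these levels too, on the scale over all 30 lanes and with no test. Of the 56 genes that fell outside the lists, 36 had a 129SvEvTac mouse at or below the highest mutant, and 34 had an MK37 mouse there. All 6 mice were there for 30 genes in 129SvEvTac mice and for 10 in MK37 mice. Of the 54 genes that rose, 43 had an MK37 mouse as high as a mutant, and for 15 all 6 MK37 mice were. Values in 129SvEvTac mice were at hand for 51 of them, and 35 had a mouse of that strain as high as a mutant. For 23 of the 51 all 6 mice of that strain were. On that scale Olfr855 had 338 to 425 counts in the wild-type companions and 1281 to 1764 in ΔHxΔP mice, and it had 1618 to 3334 in the 6 MK37 mice and 290 to 358 in the 6 129SvEvTac mice. The mutants thus lay apart from their own companions and overlapped the lower end of the MK37 mice. For Olfr24 the values were in the same order, with 25 to 56.7 counts in companions, of which 4 of 6 were at or under the background, 171 to 269 in mutants and 223 to 415 in the MK37 mice. Against the background Olfr24 was at least 4.28-fold higher in mutants than in companions (adjusted p = 6.16e-08). For Olfr862 the ranges were 868 to 962, 442 to 576, 242 to 703 and 888 to 1068 in companions, mutants, MK37 and 129SvEvTac mice. The part of the mixed genetic background in these differences was not tested.

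Around the genes named outside the lists, 16 of 35 measured neighbours were themselves called, and 10 of the 35 had been named for their own values as well. Olfr362 on chromosome 2 stood at 1225 (1132 to 1399.9) in wild-type mice and at 583 (454 to 658) in mutants, and it fell by 1.13 on the log2 scale (SE 0.0981, adjusted p = 8.90e-08). Its measured neighbours Olfr361 and Olfr368 changed by -0.37 (adjusted p = 0.00634) and 0.15 (adjusted p = 0.137). In MK37 mice Olfr362 stood at 893 to 1134 and in 129SvEvTac mice at 1092 to 1189, above every mutant on the same scale (479 to 695). Olfr107 on chromosome 17 went from 408 (165 to 633) to 1370.4 (992 to 1753) counts and rose by 1.98 (adjusted p = 2.86e-04), while Olfr103 and Olfr109 on either side changed by -0.09 and 0.03 and did not pass. The mutants' level of Olfr107 was not reached by the MK37 mice, at 172 to 797, the 129SvEvTac mice, at 215 to 274, or the 6 ΔOlfr7Δ mice of the series, at 254 to 304, against 1047 to 1850.5 in mutants on that scale. On chromosome 1 Olfr1406 fell by 0.73, from 1578 (1452 to 1722) to 979 (804 to 1069), between Olfr1408 and Olfr218 at -0.05 and 0.09, which did not pass.

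Also on chromosome 1, Olfr421 rose by 2.11 and Olfr429 fell by 0.56, with Olfr430 between them at 0.19 (adjusted p = 0.231), Olfr432 next to Olfr429 at 0.25 (adjusted p = 0.0844), and Olfr424 beyond Olfr421 higher by 0.34 (adjusted p = 0.0113). Olfr355 on chromosome 2 rose by 0.79, with Olfr354 and Olfr356 at 0.07 and 0.41 and not passing. The adjacent class I genes Olfr643 and Olfr644 on chromosome 7 rose by 0.58 and 0.46, while the genes beside them, Olfr642 and Olfr645, changed by 0.25 (adjusted p = 0.0317) and -0.24 (adjusted p = 0.109). Class I genes, the smaller and older class of ORs, all lie on chromosome 7, and of 85 measured outside the P cluster 2 fell and 10 rose, the latter near the 10.2% of all OR genes. Olfr449 on chromosome 6 fell by 0.36 beside Olfr450, which fell by 0.38, and Olfr448, which rose by 0.37. On the distal part of the chromosome 9 clusters Olfr905 rose by 0.97, Olfr149 by 1.51, and Olfr910 fell by 0.42. In mutants 1 to 6 Olfr905 had 1064, 1021, 970, 1068, 785 and 750 counts, and Olfr149 had 434, 507, 478, 426, 294 and 283. Mutants 5 and 6 were the lowest for both genes, and wild-type mouse 6 was the highest of its group, at 686 and 263. The same mice were low and high for Olfr909, described below. Olfr902, next to Olfr905, rose by 0.94 (adjusted p = 0.0212), while Olfr906, Olfr963 and Olfr965 changed by 0.02, 0.11 and 0.03 and did not pass. Olfr914, next to Olfr910 on that distal part, changed by -0.24 (adjusted p = 0.0383). At the start of that chromosome Olfr828, next to Olfr24, changed by -0.15 (adjusted p = 0.134). Of the 25 genes named only as neighbours 7 passed, a share near the 27.1% of all OR genes called in either direction, and of these Olfr448, Olfr642, Olfr902 and Olfr914 lost the call when single mice were left out.

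Mice of a group were not alike at every OR gene. Over the 558 genes the median SD was 0.181 in mutants and 0.14 in wild-type mice on the log2 scale. Olfr909 on chromosome 9 had the largest SD among mutants and the next to largest, after Olfr90, among wild-type mice. Its counts in mutant mice 1 to 6 were 412, 795, 752, 431, 48.6 and 70.3, and in wild-type mice 1 to 6 they were 59, 64.7, 54.7, 47.4, 76.8 and 379. Mutant mice 2 and 3 were highest, 1 and 4 lay between, and 5 and 6 were as low as all wild-type mice but the sixth. The change of 1.71 did not pass (adjusted p = 0.0654), but did so without wild-type mouse 6 (adjusted p = 0.0175), mutant mouse 5 (0.00975) or mutant mouse 6 (0.0208). Olfr893, Olfr902, Olfr916 and Olfr975 of the same chromosome, of which Olfr893 and Olfr916 were chosen after their values were seen, had the same mice high and low. Olfr975 had 292, 488, 483, 298, 109 and 104 counts in mutants 1 to 6, and Olfr893 had 603, 1040.1, 899, 648, 213 and 231. In wild-type mice the sixth was again the highest, with 264 for Olfr975 and 640.2 for Olfr893 where the others stayed at or under 88.5 and 232. Olfr149 and Olfr905, given above, also had mutants 5 and 6 lowest and wild-type mouse 6 highest of its group. All these genes share a chromosome and the same 12 mice, so their likeness is a single observation.

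A different order was seen at other loci. Olfr421 had 858, 347, 364, 392, 1107 and 1059 counts in mutants 1 to 6, with 1, 5 and 6 at over 800 and the other 3 under 400, and all 6 were above the wild-type mice, which had 150 (108 to 177). For Olfr31, on chromosome 14 but far from the H mark, the same 3 mutants were the lowest, an observation made after the values were seen. Olfr31 had 475, 853, 1319, 830.1, 342 and 353 counts in mutants 1 to 6, against 1429 (1346 to 1519) in wild-type mice, so mutant mouse 3 was almost at the wild-type level while mice 5 and 6 were far below it. Of the genes in the H mark, Olfr1509 had 139, 163, 139, 132, 141 and 149 counts in the same 6 mutants and Olfr1510 had 201, 126, 72.5, 184, 203 and 147. Among wild-type mice the largest SDs were those of Olfr909, Olfr90, Olfr107, Olfr539 and Olfr975. Olfr90 on chromosome 17 stood at 194 (60.1 to 404) in wild-type mice and at 548 (466 to 604) in mutants, and rose by 1.77 (adjusted p = 0.00513). Wild-type mice 1, 5 and 6 were the high ones for both Olfr90 (342, 60.1, 73.2, 73.3, 404 and 315 in mice 1 to 6) and Olfr107 (633, 210.4, 169, 165, 605 and 629.7), which lie on the same chromosome. Olfr539 stood at 749 (382 to 1267) and 761 (300.3 to 1342), a change of -0.09 (adjusted p = 0.889).

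**Figure D5:**
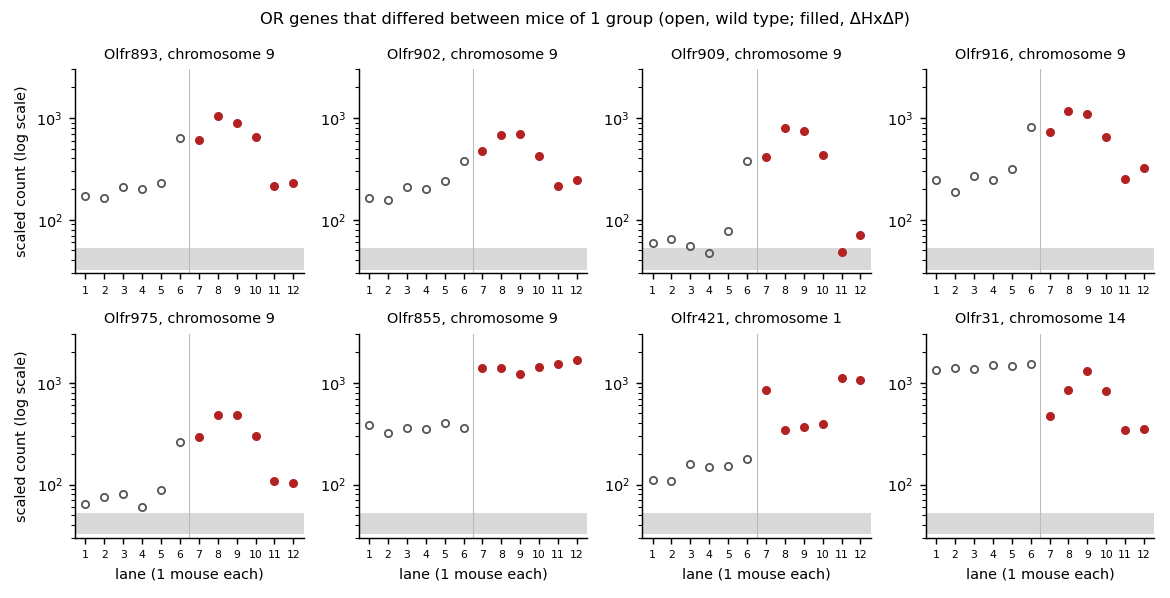
Scaled counts on a log axis against lane for 8 OR genes, 1 mouse to a lane, with wild-type mice open in lanes 1 to 6, mutants filled in lanes 7 to 12 and the range of lane backgrounds in grey. In the 5 genes from Olfr893 to Olfr975 lanes 8 and 9 are highest and lanes 11 and 12 lowest among mutants, whereas Olfr855 differs between the groups and not within them.

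A test against a minimum change narrows these lists. tTREAT, the study's test of a fold beyond 1.5 at an unadjusted p of 0.01, was applied to background-subtracted counts and called 23 genes lower (4.12% of 558) and 4 higher (0.717%). The study set the mutants against 12 wild-type mice, with those of MK37 included, so its calls are not from the same comparison. Outside the H and P clusters it called Olfr362 and Olfr107. Of the 23, 10 are of the P cluster, 5 carry the H mark, 6 are other genes of chromosome 14 and 2 lie elsewhere, Olfr362 and Olfr862. The P cluster genes are Olfr695, Olfr704, Olfr705, Olfr706, Olfr710, Olfr6, Olfr711, Olfr2, Olfr713 and Olfr714, and those of chromosome 14 outside the H mark are Olfr730, Olfr738, Olfr740, Olfr745, Olfr748 and Olfr750. The 4 called higher were Olfr855, Olfr421, Olfr149 and Olfr107. Over 21 fits, which add 8 other settings and the 12 fits without 1 mouse, Olfr421 and Olfr855 were called in 21, Olfr149 and Olfr107 in 9 each and, among the genes called lower, Olfr695 in 11. The number called higher was 2 without wild-type mouse 2, 3 or 4 or without mutant mouse 1, 2, 3 or 4, and 7 without wild-type mouse 6. Complete separation, every mutant below every wild-type mouse, was met by 61 genes (10.9%), of which 5 carry the H mark, 11 are other chromosome 14 genes, 14 are of the P cluster, 2 are P telomeric and 29 lie elsewhere. The reverse order was met by 22 genes (3.94%), of which 2 are on chromosome 14 and 20 outside all lists.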

How the data were processed

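Total RNA of whole olfactory mucosa was hybridised to a NanoString CodeSet, and the authors deposited raw counts per probe pair and lane with no normalization, beside a table of OR genes with their names and positions. From the deposited counts, lanes were brought to a common geometric mean of the 6 positive controls, then to a common geometric mean of the 5 reference genes, over the 12 lanes. Lane backgrounds are the mean plus 2 SD of 8 negative controls. OR genes without a count on this cartridge (6 of 564) were left out. The fit used limma 3.58.1 in R 4.3.3 on log2(scaled count + 1), with a trended prior, both groups of 6 mice and no covariate, adjusted over 558 genes. tTREAT was run as the study's published function computes it, on background-subtracted counts. There a value under 1 is replaced by a lane background that need not be that of its own lane. Replacement from the same lane was among the other settings. Sums were compared by exact two-sided permutation in Python 3.11.15. Limma and tTREAT were tested on simulated data. Genes named are all genes of the H mark, chromosome 14 and the P cluster, the 3 nearest on each side of the P cluster, elsewhere the 10 smallest p-values in each direction and every tTREAT call, with neighbours, and the 5 largest wild-type SDs. The members and lists were chosen with earlier results of these data known. Names matched RefSeq (GRCm38.p6, names only) for 553 genes by symbol and for 5 by an older name. Each lane is a separate mouse, so the spread holds animal and technical differences together. Depth limits values near the background, and no interval for counting error was computed. Other scales, filters, covariates and subsets of mice were tried.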

Additional observations from a re-analysis of the deposited data

Results flagged for a closer look

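For the 103 named genes and the 5 reference genes, 215 groups of 6 mice were examined for a mouse set apart from the others, without the mutants of Olfr1508, which are all at the background. Dixon's test was used, the gap to the nearest mouse over the range of the group, both on log2 counts. Chance alone gives about 1 in 20, which is 10.75 groups, and 8 were found. That number is only a rough guide, because the groups share mice and are not independent. Some genes, Olfr909 and Olfr975 among them, were also named for a large wild-type SD in these same values. In wild-type mice Olfr693 was lowest in mouse 1, at 1778 against 2140 (ratio 0.634), Olfr695 highest in mouse 4, at 4097 against 3708 (0.701), and Olfr429 lowest in mouse 1, at 671 against 782 (0.645). Wild-type mouse 6 was highest for Olfr909, at 379 against 76.8 (0.769), and for Olfr975, at 264 against 88.5 (0.746). In mutants Olfr691 was highest in mouse 6, at 911 against 782 (0.649). Mutant mouse 3 was lowest for Olfr854, at 318 against 447 (0.858), and for Olfr828, at 673 against 760 (0.628).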

How the results depend on the processing

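Calls in the H mark, on the rest of chromosome 14 and in the P cluster varied little, and no named gene that passed changed direction. With the positive controls alone 123 OR genes were called higher, among them 6 P telomeric genes and 114 of the 488 others, of which 27 were lower. TMM factors over the OR genes gave 101 higher (6 P telomeric, 92 others) and the median of ratios 100 higher (5 and 92). The filter on a wild-type median of 100 gave 1 P telomeric gene higher. With sex as a covariate 35 of the others were higher. In males alone 55 OR genes were lower and 26 higher, with 22 and 24 among the others and 0 of the P cluster higher. Leaving out 1 mouse at a time gave 79 to 114 OR genes lower and 36 to 66 higher, with 33 to 63 of the others higher (36 and 33 without wild-type mouse 2) and 0 to 3 P telomeric genes higher (1 without wild-type mouse 5, 3 without mutant mouse 2). tTREAT called 8 genes higher at a threshold of 1.3, 2 at a threshold of 2 (with 15 lower), 7 with a moderated variance, 2 with Benjamini-Hochberg adjustment, 2 with sex as a covariate and 2 to 7 without 1 mouse. Without 1 mouse the log2 change of summed counts ran from -0.018 to 0.0395 for P telomeric genes, from -0.0149 to 0.0257 for all others and from -0.114 (adjusted p = 0.0292, without mutant mouse 6) to -0.0736 for all OR genes. Single genes near the threshold moved across it. Of the named genes 13 lost their call under at least 1 alternative and 8 gained one. In males alone Olfr17, Olfr90, Olfr361, Olfr450, Olfr642, Olfr692, Olfr702, Olfr715, Olfr720, Olfr722 and Olfr902 did not pass (adjusted p from 0.050 for Olfr722 to 0.266 for Olfr450). Olfr448 was lost without wild-type mouse 1, 2, 4 or 5 or mutant mouse 1, 5 or 6 (adjusted p from 0.0521 to 0.0677), Olfr642 without wild-type mouse 1, 2 or 5 or mutant mouse 1, 2 or 3 (0.0564 to 0.0679), Olfr914 without wild-type mouse 2, 3, 4 or 5 or mutant mouse 1, 2, 3 or 5 (0.0540 to 0.0891) and Olfr902 without wild-type mouse 2 (0.0525). Without mutant mouse 6 Olfr734 and Olfr744 passed (0.0405 and 0.00752), as Olfr744 did without wild-type mouse 2 (0.0309), Olfr356 without mutant mouse 2 or 3 (0.0383 and 0.0251) and Olfr432 without mutant mouse 1 (0.0413). The positive controls alone move the median of all OR genes to 0.09. The cause of these differences was not tested. edgeR and DESeq2 were not used, although planned. No paired analysis was possible because mouse numbers follow lane order and pair no mice. Counts at the lane background limit the changes of Olfr1507, Olfr1508, Olfr2, Olfr711 and Olfr24 to bounds.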
